A study of Mus musculus with 23 samples.

Results

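Genomic imprinting is the expression of a gene from the maternal or the paternal copy only, and an imprinting control region (ICR) is the stretch of DNA that directs it. An ICR carries DNA methylation on the allele of one parent and lacks it on the other. The mark is laid down in the egg or the sperm and is kept in every tissue of the body, the brain included, by ZFP57 and TRIM28, which bind the methylated allele, and by the maintenance enzyme DNMT1. Imprinted genes such as Mest, Peg3, Grb10 and Gnas are known for roles in growth, metabolism and behaviour.

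The ICR windows were the 150 bp windows of the deposited table that lay wholly inside 17 ranges of the GRCm38 (mm10) genome, each drawn around a known mouse ICR. The ranges hold 756 windows of this size, and 47 of them were among the 210191 windows that the authors retained. The rule used positions only and no measured value.

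The assay was MBD-seq, run on prefrontal cortex DNA of 23 male and female mice of the inbred strains C57BL/6J (B6) and DBA/2J (D2). Fragments that carry methylated CpGs are captured by the MBD2 protein and sequenced, so a higher read count in a window stands for more methylated DNA. Treated mice (CORT + DFP) had corticosterone, the stress hormone of rodents, in the drinking water at 20 mg% for 7 days, then an injection of 4 mg per kg of diisopropyl fluorophosphate (DFP), a surrogate for the nerve agent sarin, as a model of Gulf War Illness, and per the study's methods had corticosterone again in alternate weeks until the tissue was taken. Control mice, per the same methods, drank water without corticosterone and were injected with saline. The 4 groups were B6 control (n = 5), B6 CORT + DFP (n = 6), D2 control (n = 6) and D2 CORT + DFP (n = 6). Mice were 145 to 226 days old and the labels name no engineered allele. The tissue is bulk cortex, so the share of cell types that carry a mark and the level of the mark per cell cannot be told apart, and an ICR signal does not say which parental allele was captured. The tissue label was not checked against expression markers, since the assay measures DNA.

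Sample names begin with G1014, G1118 or G1208, called sets here. All B6 control mice were of set G1118, and the D2 control mice were of sets G1014 and G1208, so strain and set cannot be told apart among control mice. Set G1014 held treated mice of both strains. Mice were 196 to 226 days old in G1014, 145 in G1118 and 147 in G1208. Age thus largely follows set, and a term for age cannot be cleanly told apart from a term for set. Each mouse had 9776537 to 18428398 reads in the retained windows, and 1055 to 2549 of them were in the 47 ICR windows.

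The windows fell in 11 of the 17 ranges. The Gnas-Nespas range held 13, Dlk1-Meg3 held 7, Mest and Zrsr1-Commd1 held 5 each, Peg3 held 4, Grb10 held 3, and H19-Igf2, Plagl1, Peg13-Trappc9, Airn-Igf2r and Impact held 2 each. No window was retained in the ranges of Nnat, Peg10-Sgce, Nap1l5, Snrpn, Kcnq1ot1 and Rasgrf1, which together hold 223 windows of this size. A window could be retained only if at least 2 mice exceeded 1 CPM, a read count scaled to library size, there, so a range without windows is one in which this level was not reached. In all, 6.22% of the windows in the ranges were retained, against 1.18% (267 of 22644) in the 100 kb on either side of the ranges. The flanks were not matched to the ranges on CpG number, so these shares do not compare methylation.

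The sequences of a few of these windows show what the assay captured, since MBD2 binds methylated CpGs. They are printed 5′ to 3′ on the plus strand of GRCm38, from GENCODE M21 transcripts, with each CpG in capitals. The first pair are neighbours in the coding exon of the extra-large G protein subunit of Gnas, at chr2:174298201-174298350 and chr2:174298351-174298500, and are shown because they had the smallest p-values for a sex difference among the ICR windows. The third lies in the non-coding RNA H19 at chr7:142576951-142577100 and overlaps the precursor of miR-675, and the fourth lies in the non-coding RNA Peg13 at chr15:72810151-72810300. The H19 and Peg13 windows stand for the strongest and one of the weaker ranges.
Gnas, first window: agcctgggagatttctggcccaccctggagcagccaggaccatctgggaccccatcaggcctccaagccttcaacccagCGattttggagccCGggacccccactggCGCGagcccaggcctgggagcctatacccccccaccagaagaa
Gnas, second window: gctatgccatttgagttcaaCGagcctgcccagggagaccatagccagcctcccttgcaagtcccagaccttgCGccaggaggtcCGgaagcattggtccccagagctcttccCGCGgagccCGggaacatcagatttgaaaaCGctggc
H19: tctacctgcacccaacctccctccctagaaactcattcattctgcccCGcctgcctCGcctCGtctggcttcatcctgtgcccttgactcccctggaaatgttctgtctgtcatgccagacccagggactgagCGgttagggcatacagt
Peg13: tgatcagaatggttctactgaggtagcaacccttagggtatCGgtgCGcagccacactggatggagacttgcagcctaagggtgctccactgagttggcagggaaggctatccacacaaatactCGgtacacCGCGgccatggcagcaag

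The number of CpGs in these 4 windows was 4, 7, 4 and 5. In the 20 ICR windows that lie wholly in an annotated exon and so could be read from transcripts, the count of CpGs in the sequence equalled the deposited count in 19 and differed by 1 in the other. The windows of the Dlk1-Meg3 range lie outside genes, and their sequence was not analysed here.

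Promoters of the ranges varied widely in CpGs, in ranges with and without retained windows alike. As examples, the 250 bases before the RefSeq start of Mest, a paternally expressed hydrolase gene whose range had 5 windows, are shown with those of Snrpn, a splicing protein gene of the Prader-Willi region, and Kcnq1ot1, a long antisense RNA, whose ranges had 0. They are printed 5′ to 3′ on the strand of the gene in GRCm38.p6, again with CpGs in capitals, and lie at chr6:30737800-30738049 (plus strand), chr7:60005200-60005449 (minus strand) and chr7:143296548-143296797 (minus strand).
Mest: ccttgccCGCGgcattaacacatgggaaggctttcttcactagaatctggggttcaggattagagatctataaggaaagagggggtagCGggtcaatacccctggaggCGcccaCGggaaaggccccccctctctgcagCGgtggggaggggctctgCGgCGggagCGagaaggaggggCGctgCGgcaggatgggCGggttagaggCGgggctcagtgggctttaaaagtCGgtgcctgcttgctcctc
Snrpn: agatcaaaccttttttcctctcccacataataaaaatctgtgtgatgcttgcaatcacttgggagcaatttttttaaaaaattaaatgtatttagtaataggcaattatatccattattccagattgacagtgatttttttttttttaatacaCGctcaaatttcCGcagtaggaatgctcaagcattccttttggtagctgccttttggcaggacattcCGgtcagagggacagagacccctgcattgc
Kcnq1ot1: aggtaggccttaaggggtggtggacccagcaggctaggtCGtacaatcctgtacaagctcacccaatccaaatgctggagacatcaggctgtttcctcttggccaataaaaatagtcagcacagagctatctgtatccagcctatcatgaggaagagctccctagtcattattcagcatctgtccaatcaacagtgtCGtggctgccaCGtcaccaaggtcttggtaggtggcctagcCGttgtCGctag

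These stretches hold 14 CpGs for Mest, 3 for Snrpn and 5 for Kcnq1ot1. Among such stretches, those of Nnat and Nap1l5, in ranges without windows, hold 12 and 10 CpGs. That of Airn, in a range with 2 windows, holds 2. Of 15 promoters in the ranges, 5 overlapped a retained window. CpGs over the whole ranges were not compared, and whether they bear on retention was not tested. The letters TGCCGC, the core that ZFP57 binds, were searched on both strands of the 300 bases around each RefSeq start. They were found in 8 of 15 promoters in the ranges (53.3%) and in 11.6% of all 32817 promoters. Of the 20 ICR windows with a sequence, which at 150 bases are shorter than the promoters, 4 held them (20%). Some of the 15 share sequence, since Mest has a pair of starts 3 bases apart and Hymai starts close to Plagl1. The letters TGCCGC hold a CpG, and the median over all promoters was 7 CpGs in the 300 bases. Promoters in the ranges held from 3 (Airn) to 27 (Hymai), most of them more than 7. Shares among promoters matched on CpG number were not compared. A core motif of CTCF and the letters AANATGGCG of YY1, also searched on both strands, were found in 0 of the 15 and in 0.0366% and 2.37% of all promoters.

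ICR windows were rich in CpGs and low in signal for their CpG number. They held 482 CpGs, with a median of 11 per window against 6 over all windows, and 57.4% held 10 or more against 11.96% of all windows. Mean log2 RPKM over the 23 mice ran from 3.63 to 4.72, with a median of 4.09 against 4.38 for all windows. Among windows with the same number of CpGs, 42 of the 47 lay below the median level, by a median of 0.50 on the log2 scale, and the median ICR window sat at the 14.2 percentile. The 5 above it were both H19 windows, chr2:174298051-174298200 in Gnas, and chr12:109526551-109526700 and chr12:109526701-109526850 in Dlk1-Meg3. These are descriptions, since neighbouring windows share fragments.

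**Figure D1:**
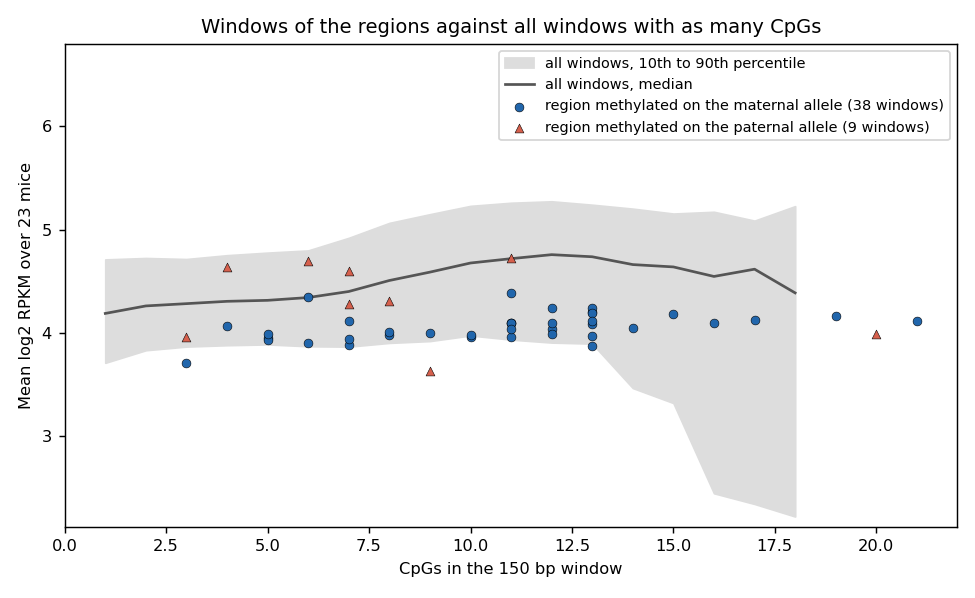
Mean log2 RPKM over 23 mice (y axis) against the number of CpGs in the window (x axis) for the 47 ICR windows, with the median (line) and the 10th to 90th percentile (band) of all windows, drawn where 100 or more windows share the CpG number. Colours are set by range, after the allele that is methylated at its ICR in textbooks, and were not assigned to single windows. Of the 47 points, 42 lie below the median of windows with as many CpGs.

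The 2 H19 windows gave the highest level of any range. H19 is a maternally expressed RNA whose ICR, methylated on the paternal allele, lies before its start and also controls the growth factor gene Igf2. Both windows lay inside the gene (chr7:142575529-142578143 in GENCODE, minus strand) and none was retained before its start, so the signal of this range is from the body of H19. Their mean level was 4.68 ± 0.18 (SD, n = 23), with single mice from 4.39 to 5.13. The next range, Dlk1-Meg3, had 4.20 ± 0.22.

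The other ranges lay close together. Grb10, which encodes a brake on insulin signalling, had 4.13 ± 0.22, Plagl1, a zinc finger gene, 4.13 ± 0.23, and Gnas-Nespas 4.12 ± 0.10 (SD, n = 23 for each). Impact, a gene of translational control, had 4.05 ± 0.29, Zrsr1-Commd1 4.02 ± 0.24 and Mest 4.01 ± 0.17. Airn-Igf2r, where the RNA Airn silences a receptor gene, had 3.97 ± 0.27, Peg13-Trappc9 3.96 ± 0.21 and Peg3, a zinc finger gene, 3.94 ± 0.20. From Dlk1-Meg3 down, each range differed from its neighbour in this order by less than the SD between mice. The order was not the same in every group, and among D2 control mice Dlk1-Meg3 (4.02) lay below Plagl1 (4.21) and Gnas-Nespas (4.14). That Dlk1-Meg3 level includes chr12:109527601-109527750, which averaged 2.92 in D2 control mice and was retained through B6 mice only, as given below. Its place in the order without this window was not examined.

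The 13 windows of Gnas-Nespas fell in separate stretches. Gnas makes several transcripts from promoters that are imprinted in opposite directions. There were 3 windows near Nesp and Nespas (chr2:174285151-174286200) and 10 in the part that makes the extra-large subunit (chr2:174295501-174299400), 8 of them in coding sequence. The highest was chr2:174297901-174298050, with 11 CpGs and 4.38, and the lowest was chr2:174295501-174295650, with 7 CpGs and 3.88. Of the 47 windows, 40 were in a gene, 28 touched an exon and 9, all in Gnas, touched coding sequence.

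**Figure D2:**
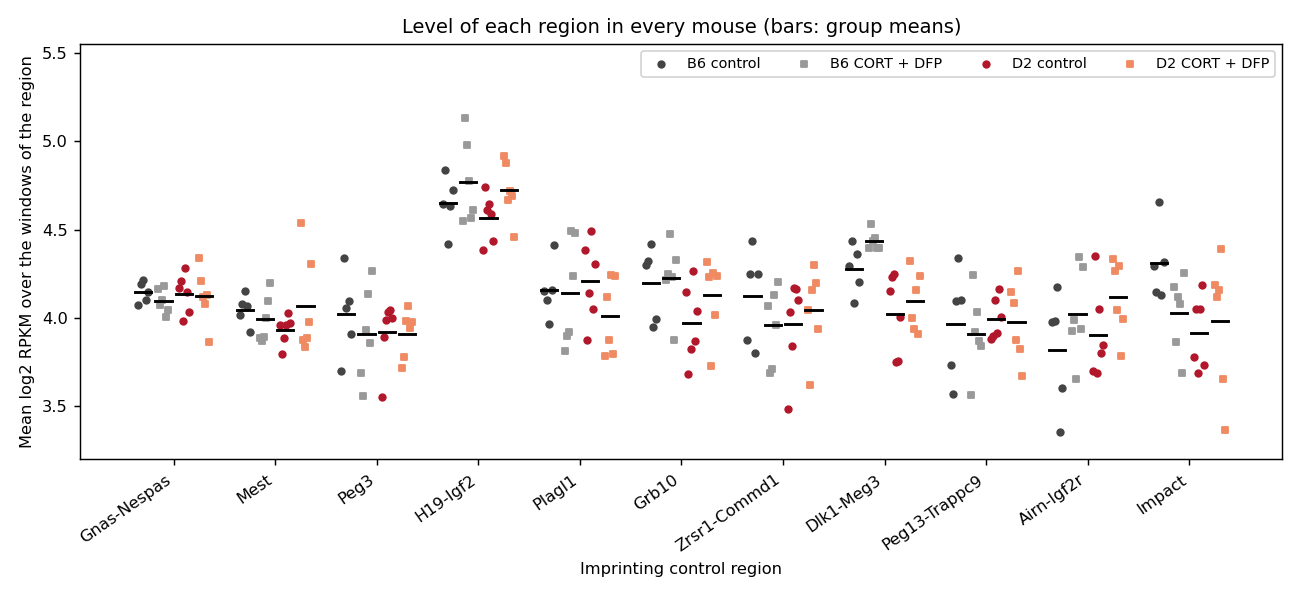
Mean log2 RPKM over the windows of each range (y axis) in every mouse, by group (n = 5 or 6), with bars at the group means. The H19-Igf2 values lie at 4.39 or more in all mice. The Dlk1-Meg3 level includes chr12:109527601-109527750, which reached the level taken for retention through B6 mice only, so its selection favoured a strain difference. The gap drawn there between B6 CORT + DFP mice (4.39 to 4.53) and D2 mice is therefore no evidence of a strain difference.

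The spread between mice was close to what counting reads gives. A window had 7 to 82 reads in a mouse, and the medians of windows ran from 24 to 53. The residual SD after the model was a median of 0.27 on the log2 scale in ICR windows, and its ratio to the SD from counting was a median of 1.06, against 1.10 over all windows. The precision of a single window was limited accordingly. The median standard error over the ICR windows was 0.17 for strain, 0.18 for treatment in B6 and 0.15 for treatment in D2.

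The strain comparison asked whether D2 control mice differed from B6 control mice. Of the 47 windows, 2 differed at a limma adjusted p under 0.05, against 25.7% of all windows, and both were lower in D2, as were 15.2% of all windows (10.5% were higher). One of the called windows reached the level taken for retention through B6 mice only, as given below, so its selection favoured a strain difference. Without it 1 of 46 was called. At an unadjusted p under 0.05, 6 of 47 (12.8%) passed against 33.1%. Among the 139310 windows within the ICR windows' range of level and CpG number, 18.98% were called. The median absolute difference was 0.13 in ICR windows and 0.20 over all windows. With 13 of the windows in a single locus, this count is over neighbouring stretches and not over independent sites.

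Both windows are adjacent, in the Dlk1-Meg3 range, between the growth regulator gene Dlk1 and the non-coding RNA Meg3. The 7 windows of this range lie 12.5 to 14.4 kb before the RefSeq start of Meg3, where the ICR between these genes is known to lie, and all are intergenic. The ICR is methylated on the paternal allele.

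At chr12:109527601-109527750, with 9 CpGs, the 5 B6 control mice had 3.93, 4.10, 4.16, 4.24 and 4.54 log2 RPKM. The 6 D2 control mice had 2.21 at the lowest, 3.04 at the median and 3.54 at the highest. All D2 control mice lay below all B6 control mice. The fitted difference, D2 minus B6, was -1.34 ± 0.21 (SE) on the log2 scale. Treated mice ran from 4.20 through a median of 4.39 to 4.59 in B6 and from 2.43 through 3.08 to 3.66 in D2. The treated groups did not overlap either. Counts were low in D2, with as few as 7 reads in a mouse. The level that retention required was taken as the lowest second-highest value of any retained window, 3.75. It was read from the deposited values and not computed from the 1 CPM filter. Here the second-highest value was 4.56 in B6 and 3.54 in D2, so the window reached that level through B6 mice only. Its selection favoured a difference between strains, and its values are a description with no test. The other 46 windows reached that level in each strain alone.

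At the neighbour chr12:109527451-109527600, with 8 CpGs, B6 control mice had 4.30, 4.46, 4.55, 4.64 and 4.69, and D2 control mice had 3.31, 4.13 and 4.28 at the lowest, median and highest. The groups did not overlap, by a narrow margin between the highest D2 and the lowest B6 mouse. The fitted difference was -0.62 ± 0.17 (limma adjusted p = 0.0057), and the exact permutation p within sex was 0.025 over 200 arrangements. By set, the D2 control mice averaged 4.24 in G1014 (n = 3) and 3.63 in G1208 (n = 3). With set in place of age in the model the difference was -0.31 with a limma adjusted p of 0.573, and among treated mice of set G1014, where 3 B6 mice averaged 4.63 and 2 D2 mice 4.06, it was -0.62 with an adjusted p of 0.072.

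The other 5 windows of the range gave no call. Differences were -0.03 at chr12:109526551-109526700, -0.13 at chr12:109526851-109527000, -0.17 at chr12:109527301-109527450 and 0.07 at chr12:109528351-109528500, and the window at chr12:109526701-109526850 had 0.00 to 2 decimals. Whether these differences are smaller than those at the called pair was not tested. Reads were aligned to the B6 reference genome, and a change of sequence between the strains, which can remove a CpG or hinder alignment, and a change of methylation cannot be told apart in these values.

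**Figure D3:**
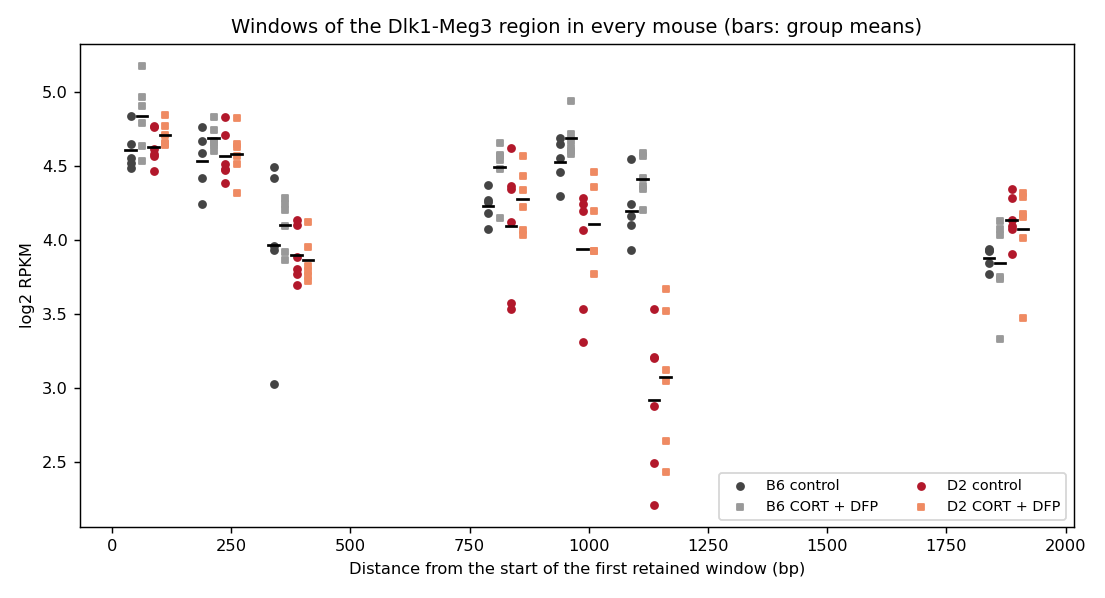
log2 RPKM (y axis) of the 7 windows of the Dlk1-Meg3 range in every mouse against distance in bp from the start of the first window (x axis), by group, with bars at the group means. In the sixth window all D2 mice, at 3.66 or less, lie below all B6 mice, at 3.93 or more.

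Below the threshold, the 4 other windows with an unadjusted p under 0.05 were also lower in D2 among control mice. The pair in Impact differed by -0.47 ± 0.19 (limma adjusted p = 0.064) and -0.41 ± 0.17 (adjusted p = 0.084). A window of Mest at chr6:30737101-30737250 differed by -0.41 ± 0.16 (adjusted p = 0.066) and a window of Grb10 at chr11:12025801-12025950 by -0.37 ± 0.17 (adjusted p = 0.11). None of these passed the test. Among treated mice, the D2 and B6 means were 3.93 and 3.97, and 4.04 and 4.10, at the Impact pair. D2 was the higher at the Mest window (4.10 and 3.90) and at the Grb10 window (4.18 and 4.08). With set in place of age, 3 of the 47 windows had an unadjusted p under 0.05 for strain.

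The treatment comparison asked whether CORT + DFP changed the mark in either strain. In B6, 0 of 47 windows were called by limma (0% of all windows), 1 had an unadjusted p under 0.05 against 5.79% of all windows, and limma's voom fit on the recovered reads called 0 and had 0 at that unadjusted level. In D2, 0 of 47 were called (0.00238% of all windows, or 5), 1 had an unadjusted p under 0.05 against 5.46%, and the voom fit called 0 and had 0 at that level. Other alternatives also called 0 but had up to 4 at the unadjusted level in each strain. In B6 it was 4 with set in place of age (10005 of all 210191 windows) and 3 among mice of set G1118 (14766). In D2 it was 4 without D2 CORT + DFP replicate 3 (11196). In the main limma fit the differences reached 0.36 at most in B6 and 0.35 in D2 in absolute size. Their 95% intervals together ran from -0.77 to 0.67 in B6 and from -0.52 to 0.64 in D2. These bounds are the outermost ends over the 47 windows, and the interval of each window was narrower. For a single window, changes within its own interval were not excluded at this depth.

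The smallest p in B6 was at chr12:109528351-109528500 of Dlk1-Meg3, which holds 20 CpGs. B6 control mice had 3.77, 3.84, 3.92, 3.93 and 3.94, and B6 CORT + DFP mice had 3.33, 3.89 and 4.13 at the lowest, median and highest. The treated mice lay on both sides of the control mice. The fitted difference was -0.31 ± 0.14 (limma adjusted p = 0.85), whereas the plain difference of means was -0.04 (exact permutation p = 0.895). The model holds age, and the treated B6 mice of set G1014 were 218 to 226 days old against 145 for all B6 controls.

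The next in B6 was chr6:30738001-30738150, at the promoter of Mest, with 11 CpGs. B6 control mice had 3.69, 3.99, 4.13, 4.18 and 4.61, and B6 CORT + DFP mice ran from 3.72 through 4.16 to 4.59. The groups overlapped. The fitted difference was 0.30 ± 0.16 (limma adjusted p = 0.87), whereas the plain difference of means was 0.02 (exact permutation p = 0.885).

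The smallest p in D2 was at the Mest window chr6:30737101-30737250, in an intron, with 10 CpGs. D2 control mice had 3.56, 3.69 and 4.13 at the lowest, median and highest, and D2 CORT + DFP mice had 3.71, 3.94 and 4.96. The groups overlapped, and the highest treated mouse stood well above the other values. The fitted difference was 0.35 ± 0.15 (limma adjusted p = 0.89, exact permutation p = 0.105). B6 mice differed by -0.33 ± 0.17 at the same window (limma adjusted p = 0.87).

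The second in D2 was chr11:12025801-12025950 in Grb10, with 16 CpGs. D2 control mice ran from 3.64 through 4.02 to 4.13 and D2 CORT + DFP mice from 3.65 through 4.29 to 4.32. These groups overlapped, with a fitted difference of 0.27 ± 0.15 (limma adjusted p = 0.93).

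The interaction asked whether the treatment effect differed between strains. It was called by limma in 0 of 47 windows (0% of all windows), with 4 of 47 (8.51%) at an unadjusted p under 0.05 against 7.04% of all windows, and the voom fit called 0 and had 3 at that level. The smallest p was at the Mest window chr6:30737101-30737250, with a difference of 0.67 ± 0.23 with a 95% interval from 0.20 to 1.15 (limma adjusted p = 0.65), and the next smallest was at the Grb10 window chr11:12025801-12025950, with 0.54 ± 0.24 (limma adjusted p = 0.69). Without D2 CORT + DFP replicate 1, the mouse with the highest value at that Mest window, 1 of 47 windows had an unadjusted p under 0.05 for the interaction and 0 for treatment in D2.

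Females (n = 11) and males (n = 12) were compared over all groups. Of the 47 windows 0 were called by limma, against 5.78% of all windows, most of them on the X chromosome. With this adjustment over all windows, X included, 0.640% of the 195677 autosomal windows were called. When autosomal windows alone were fitted and adjusted, 0 of the 195677 were called. At an unadjusted p under 0.05, 4 of 47 (8.51%) passed against 13.1% of all windows, and the voom fit called 0 and had 4 at that level. The pair with the smallest p were the Gnas windows printed above. At the first, females ran from 3.84 through a median of 4.23 to 4.79 and males from 3.44 through 4.00 to 4.28, and at the second from 3.95 through 4.24 to 4.73 and from 3.41 through 4.04 to 4.24. The sexes overlapped at each window. The fitted differences, female minus male, were 0.33 (limma adjusted p = 0.0745) and 0.31 (adjusted p = 0.0767), and both were chosen for their p-values. Both were called without B6 CORT + DFP replicate 1 or without D2 CORT + DFP replicate 4. These adjusted p-values and calls also come from the adjustment with X included. Leaving out mice with autosomal windows alone was not examined.

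**Figure D4:**
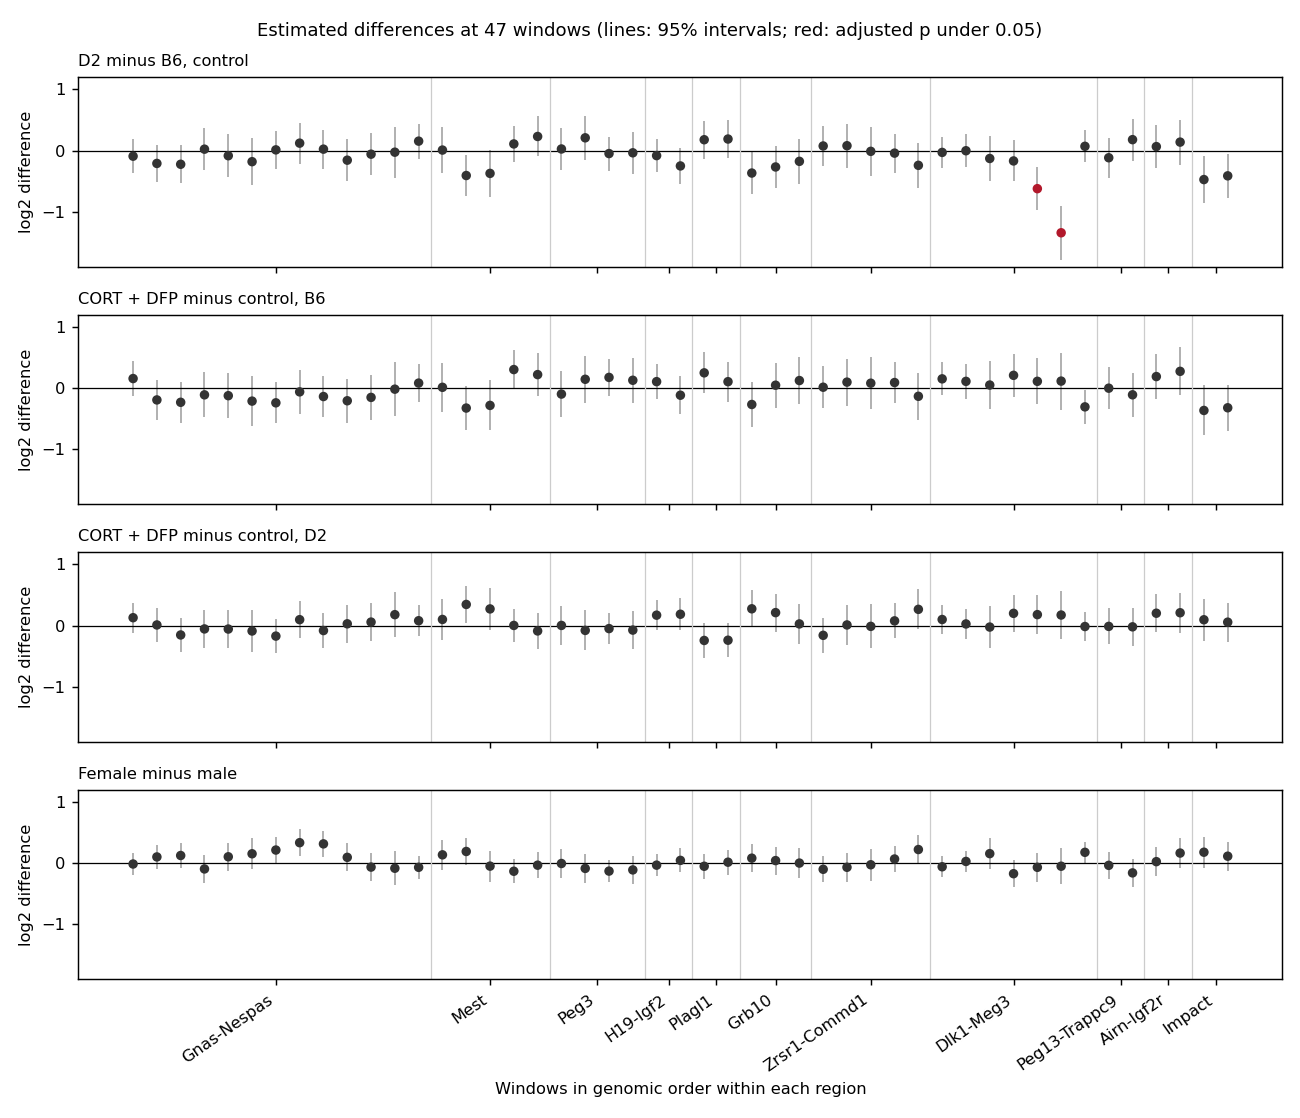
Fitted difference in log2 RPKM (y axis) with its 95% interval for each of the 47 ICR windows in genomic order (x axis), for strain in control mice, treatment in B6, treatment in D2, and sex. The 2 red points, with an adjusted p under 0.05, are adjacent windows of Dlk1-Meg3 in the strain panel.

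Other parts of the imprinting system were read from lists of genes. Within 1 kb of the starts of 40 imprinted genes, 39 of which were found in the annotation, 8 windows at 4 genes were retained. They lay at the growth factor Igf2, the cell cycle inhibitor Cdkn1c, Magel2 and the transporter Slc22a2. Of these 8, 1 differed between strains in control mice (12.5%, against 25.7% of all windows), at chr7:143460751-143460900 by Cdkn1c. D2 control mice had 3.66 ± 0.18 and B6 control mice 4.12 ± 0.29 (SD), with a fitted difference of -0.54 ± 0.16 (limma adjusted p = 0.0090). Treated mice did not show it, with 4.18 ± 0.28 in D2 and 4.03 ± 0.30 in B6. The fitted treatment effect in D2 there was 0.54 ± 0.14 (limma adjusted p = 0.61) and the interaction 0.75 ± 0.23 (limma adjusted p = 0.65). None of the 8 was called for treatment in either strain, the interaction or sex.

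Genes that set or keep imprints include the DNA methyltransferases, the TET enzymes that oxidise the mark, and Trim28. All 18 on the list were found, and 10 of them held 140 windows in all. None of the 140 was called in any of the 5 comparisons, where 25.7% of all windows were called for strain. The median strain difference over them was -0.03 against 0.01 over all windows.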

How the data were processed

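MBD-seq reads from prefrontal cortex DNA were aligned by the authors to GRCm38 (mm10) with STAR 2.5.0a and counted with MEDIPS in 150 bp windows. Windows without CpGs or with few reads were removed (over 1 CPM was needed in 2 or more mice). The deposited values are log2 RPKM with a prior count, with the number of CpGs per window. From them, 100% of values were recovered as whole read counts within 0.001 reads, with a prior averaging 2 reads.

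Each of 210191 windows was fitted with limma 3.58.1 (R 4.3.3) with terms for strain, treatment and their interaction and for sex and age, with Benjamini-Hochberg adjustment over all windows, and checked on simulated data. Alternatives changed the covariates, scaling, pseudocount, filter, CpG minimum, fit (voom on recovered reads) and mice. Exact permutation tests rearranged mice within sex. Labels do not say how mice were allotted to sets, and p-values measure the spread between these mice. Windows named are the highest of each range, those called, and the 2 smallest p per treatment comparison and the interaction. Others, such as the Gnas pair for sex, the windows near the strain threshold and the lowest of Gnas, were named after their values were seen. The ranges, lists and motifs were chosen with earlier results of these data known. Sequences came from RefSeq promoters and GENCODE M21, and motifs were not searched over all windows. Python 3.11.15, numpy 2.4.6, pandas 2.3.3 and scipy 1.17.1 were used.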

Additional observations from a re-analysis of the deposited data

Results flagged for a closer look

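The level of the Peg3 windows in D2 control mice was flagged because replicate 1 lay far from the rest of its group. It had a mean log2 RPKM of 3.56 (3.555 before rounding), while the other 5 mice had 3.90 to 4.05. Its gap to the nearest mouse was 0.693 of the range of the group. This mouse had 10341578 reads in retained windows, the fewest of the D2 mice. Of 44 groups tested in this way, 1 was flagged, and chance flags about 1 in 20.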

How the results depend on the processing

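No paired analysis was possible because the labels give the mice of different groups no shared replicate number. Called windows for strain rose from 2 to 4 under quantile normalization, which added a Peg13 and an Airn window higher in D2, and fell to 1 among treated mice of set G1014, where only 5 mice were fitted and the remaining call was the Dlk1-Meg3 window retained through B6 mice only. That last alternative was chosen after seeing the data. Leaving out each mouse in turn gave 2 to 3 windows for strain, 0 to 2 for sex and 0 for treatment in either strain and for the interaction. For sex the windows were called without B6 CORT + DFP replicate 1 (2), D2 CORT + DFP replicate 4 (2) or B6 control replicate 3 (1). The causes were not tested. Requiring more than 10 reads on average removed no window.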
